A study of Mus musculus with 12 samples.

Results

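The 10 genes described here encode heat shock proteins and chaperones: Hspa1a, Hspa1b, Hsph1, Hsp90aa1, Dnajb1, Hspb1, Cryab, Hspb6, Hspb7 and Hspb8. They were taken by gene symbol from a table of 55679 genes, and all 10 symbols matched 1 gene each. RNA was sequenced from whole lung and whole heart of 6 male mice (strain 129S6/SvEvTac), adult and with no treatment named. In the 3 Adam19 KO mice both alleles of Adam19, a membrane metalloprotease gene, carry a tdTomato construct with an antisense HygroR cassette in place of internal exons, and the 3 Adam19 WT mice carry none. The change is present in every tissue. Each mouse gave 1 lung and 1 heart library, so that the 4 groups (lung WT, lung KO, heart WT and heart KO) hold 3 libraries each, and replicate 1, 2 or 3 of a genotype names the same mouse in both tissues.

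Chaperones bind proteins that are unfolded or partly folded. The HSP70 proteins Hspa1a and Hspa1b hold and release such clients in a cycle driven by ATP. Dnajb1, an HSP40 protein, starts that cycle by stimulating ATP hydrolysis, and Hsph1, an HSP110 protein, restarts it by exchanging the nucleotide. Hsp90aa1, the inducible cytosolic HSP90, acts later on kinases and steroid receptors. The small heat shock proteins Hspb1, Cryab, Hspb6, Hspb7 and Hspb8 need no ATP. They form dimers and larger assemblies that keep clients soluble, and several of them sit on desmin filaments and Z-discs of striated muscle. Heat shock factor 1 (Hsf1) induces the stress-responsive genes of the group by binding heat shock elements, which are repeats of GAA in alternating orientation.

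The libraries held 17674788 to 35862932 estimated read counts. The targeted gene matched the labels in every library. Adam19 lay between 9.12 and 9.41 in WT lungs and 3.21 and 4.44 in KO lungs, and between 9.17 and 10.27 in WT hearts and 6.01 and 6.67 in KO hearts, all as deposited log2 gene values. The small cytoplasmic RNA gene Rn7s1 took from 2.10% of the estimated counts (lung WT replicate 3) to 34.0% (lung WT replicate 1). Lung WT replicate 2 had the highest skeletal muscle markers among the lungs, with a summed level of 12.03 over 8 markers against 8.20 to 9.34 in the other 5 lungs. All 10 heart muscle markers reached a deposited log2 value of 3.46 in every library of each group but lung KO, where 9 did. Their summed levels were 20.97 to 21.25 in hearts and 13.61 to 14.90 in lungs. All 8 lung epithelium markers reached it in every lung, against 5 in every WT heart and 6 in every KO heart. Their summed levels were 18.88 to 19.17 in lungs and 12.54 to 13.23 in hearts. Among them Hopx differed least between WT tissues (log2 difference 0.88, against a list median of 10.52). The origin of the heart sum was not tested. Both tissues carried their labelled markers, and part of the other's list at a lower level.

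The upstream sequences are shown first because heat shock elements, where a gene has them, usually lie before its start. RefSeq gave a promoter window for 8 of the 10 members (11 windows, build GRCm38.p6), and Cryab and Hsp90aa1 had none in the table used. The 250 bases before each start were searched on both strands for the heat shock element, taken as 3 GAA units in alternating orientation with 2 free bases between units. Allowing 1 mismatch in its 9 fixed letters, it was found in 5 of the 8 members, Hspa1a, Hspa1b, Hsph1, Hspb1 and Hspb6, and in 6.08% of all 32851 RefSeq windows of the same length. No member window held an exact match, and 0.466% of all windows did. The motif TATAAA, read on the strand of the gene, was found in 1 member, Hspb6, and in 7.59% of all windows. In the sequences below, given 5′ to 3′ on the strand of the gene, capitals mark the heat shock element matches. Hspb7 is included as a small heat shock protein gene with no match. Hspa1a is chr17:34972157-34972406, minus strand. Hspa1b is chr17:34959239-34959488, minus strand. Hsph1 is chr5:149636337-149636586, minus strand. Hspb1 is chr5:135887669-135887918, plus strand. Hspb6 is chr7:30553051-30553300, plus strand. Hspb7 is chr4:141420529-141420778, plus strand.
Hspa1a: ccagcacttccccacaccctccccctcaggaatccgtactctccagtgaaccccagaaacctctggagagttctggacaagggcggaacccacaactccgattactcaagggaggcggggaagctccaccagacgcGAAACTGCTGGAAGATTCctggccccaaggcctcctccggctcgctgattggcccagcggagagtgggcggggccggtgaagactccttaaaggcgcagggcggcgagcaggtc
Hspa1b: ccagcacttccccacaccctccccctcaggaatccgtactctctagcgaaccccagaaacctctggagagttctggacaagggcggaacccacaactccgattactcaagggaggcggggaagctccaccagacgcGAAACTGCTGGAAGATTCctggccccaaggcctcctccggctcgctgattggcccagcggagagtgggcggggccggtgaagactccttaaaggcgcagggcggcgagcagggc
Hsph1: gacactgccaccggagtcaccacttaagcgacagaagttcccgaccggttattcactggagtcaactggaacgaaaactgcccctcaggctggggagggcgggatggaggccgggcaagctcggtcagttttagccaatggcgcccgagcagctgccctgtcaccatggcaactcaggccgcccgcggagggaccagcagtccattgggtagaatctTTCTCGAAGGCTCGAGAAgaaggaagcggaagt
Hspb1: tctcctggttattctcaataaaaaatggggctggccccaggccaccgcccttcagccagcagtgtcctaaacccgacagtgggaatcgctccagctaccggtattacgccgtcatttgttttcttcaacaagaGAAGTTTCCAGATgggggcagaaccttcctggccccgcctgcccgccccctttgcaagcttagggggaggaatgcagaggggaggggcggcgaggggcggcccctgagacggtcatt
Hspb6: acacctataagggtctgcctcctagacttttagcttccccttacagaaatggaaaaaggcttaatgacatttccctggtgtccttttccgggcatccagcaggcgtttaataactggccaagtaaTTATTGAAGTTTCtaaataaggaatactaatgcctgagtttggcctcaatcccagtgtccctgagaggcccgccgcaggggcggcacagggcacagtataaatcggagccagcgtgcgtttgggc
Hspb7: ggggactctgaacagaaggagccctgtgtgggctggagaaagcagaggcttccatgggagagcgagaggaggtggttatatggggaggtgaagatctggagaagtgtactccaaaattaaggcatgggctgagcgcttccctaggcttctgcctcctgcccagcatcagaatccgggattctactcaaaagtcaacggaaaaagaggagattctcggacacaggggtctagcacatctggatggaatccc

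The matches of Hspa1a and Hspa1b are the same. In each gene 2 matches that overlap begin 114 and 109 bases before the start, and the 250 bases of these genes differ at 3 positions. Hsph1 also holds 2 overlapping matches, which begin 33 and 28 bases before the start of the window shown. The single match of Hspb1 begins 117 bases before its start and that of Hspb6 125 bases before, with TATAAA 29 bases before the start of Hspb6. Dnajb1, Hspb7 and Hspb8 held no match in any of their windows, which says only that these letters are not there.

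The first comparison asked how the members' RNA differs between lung and heart of WT mice. By the deposited gene values, the small heat shock proteins and Hsph1 were higher in the heart, and the HSP70 genes, Hsp90aa1 and Dnajb1 were higher in the lung. All 10 members passed the test, an adjusted p under 0.05 (limma, Benjamini-Hochberg over all 17666 genes tested), a change of at least 1.5-fold and a group mean of at least 6. Of all genes tested 49.4% passed, so a tissue difference as such is common. In the direction of the heart, 6 of 10 members passed against 20.1% of all genes, and in the direction of the lung 4 of 10 against 29.3%. The groups did not overlap for 9 of the 10 members and for 67.6% of all genes. Over the members the median lung minus heart difference was −1.75 on the log2 scale, and over all genes tested it was 0.32. In whole tissue, fewer cells of a type and less RNA per cell cannot be told apart.

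**Figure D1:**
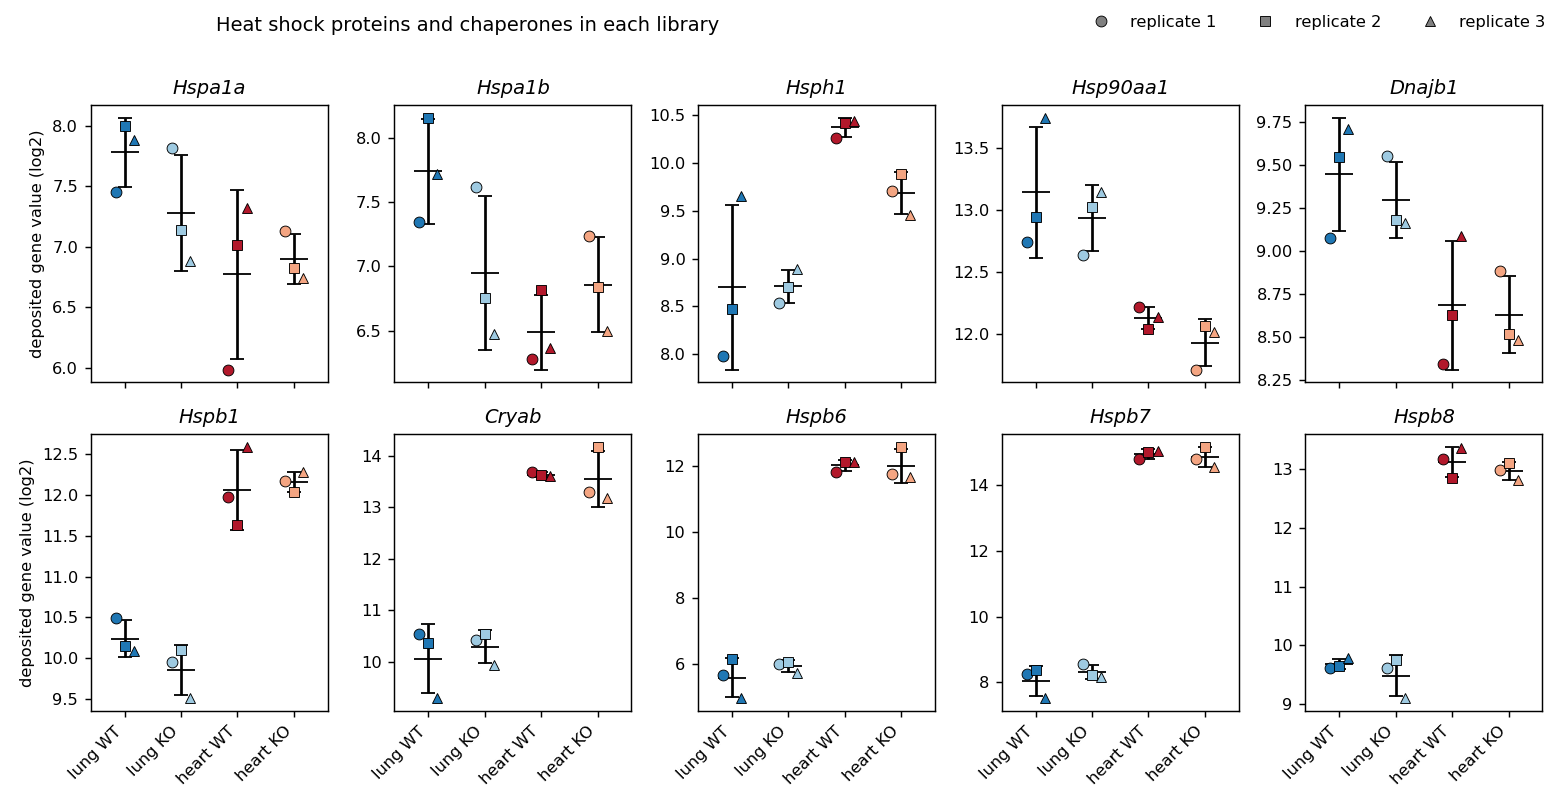
Deposited log2 gene values (vertical axis, a scale of its own in each panel) of the 10 members in lung WT, lung KO, heart WT and heart KO. Each point is 1 library, with its shape giving the replicate, and the bars are the mean and SD of 3 libraries. The 5 small heat shock proteins and Hsph1 sit higher in the hearts in both genotypes, while Hsp90aa1 sits higher in the lungs.

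Hspb7, a cardiovascular small heat shock protein that binds filamin C, showed the largest tissue difference of the members. Its gene values were 8.25, 8.36 and 7.51 in WT lungs (8.04 ± 0.46, SD, n = 3) and 14.79, 15.02 and 15.05 in WT hearts (14.95 ± 0.14, SD, n = 3). Lung was lower by 120-fold (log2 difference −6.91, SE 0.22, adjusted p = 1.11e-10). Hspb6, also called Hsp20 and a target of protein kinase A in muscle, came next. It read 5.67, 6.15 and 4.97 in WT lungs and 11.82, 12.12 and 12.11 in WT hearts (log2 difference −6.42, SE 0.29, adjusted p = 1.52e-09). The lungs held only 21.9 to 55.8 estimated counts of the coding Hspb6 transcript, so its lung level is known less precisely than its heart level of at least 2563 counts.

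Cryab (alpha B-crystallin, a chaperone of desmin) and Hspb8 (partner of Bag3 in clearing damaged filamin) followed. Cryab read 10.54, 10.36 and 9.29 in WT lungs and 13.69, 13.63 and 13.60 in WT hearts (log2 difference −3.58, SE 0.32, adjusted p = 6.29e-07). Hspb8 read 9.61, 9.64 and 9.77 in WT lungs and 13.18, 12.85 and 13.36 in WT hearts (log2 difference −3.45, SE 0.18, adjusted p = 4.45e-09). Every heart lay above every lung for both genes. Hspb1 (Hsp25 in the mouse, which binds actin and intermediate filaments) had the smallest tissue difference of the 5. Its WT values were 10.50, 10.14 and 10.08 in lungs and 11.97, 11.63 and 12.60 in hearts (log2 difference −1.83, SE 0.23, adjusted p = 1.34e-05).

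Markers of heart muscle moved with these differences. The 10 heart muscle markers all passed as lower in WT lung, with a median log2 difference of −6.95, beside −6.42 and −6.91 for Hspb6 and Hspb7. In KO mice all 10 passed as well, with a median of −7.49. Their part in the lung values of the members was not tested.

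Among the stress-inducible chaperones the direction was mixed. Hsph1 read 7.98, 8.47 and 9.65 in WT lungs and 10.26, 10.42 and 10.44 in WT hearts, and lung was lower by 3.19-fold (log2 difference −1.67, SE 0.32, adjusted p = 0.000443). The WT lungs were far apart from each other, with replicate 3 highest, while the WT hearts lay close together. Hsp90aa1 went the other way, with 12.75, 12.95 and 13.75 in WT lungs and 12.22, 12.04 and 12.14 in WT hearts (log2 difference 1.02, SE 0.23, adjusted p = 0.00165). The Rn7s1 share was 34.0%, 29.9% and 2.10% in WT lungs 1, 2 and 3, the reverse of the order of Hsph1 and Hsp90aa1. In KO lungs 1, 2 and 3 it was 10.5%, 3.22% and 20.3%, and there the order was not reversed. KO lung 3 had the largest share and the highest Hsph1 (8.89) and Hsp90aa1 (13.15) of the KO lungs. The part of Rn7s1 in the spread of these genes was not tested.

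The HSP70 pair and its co-chaperone were modestly higher in WT lung. Hspa1a read 7.46, 7.998 and 7.88 in WT lungs and 5.99, 7.01 and 7.32 in WT hearts (log2 difference 1.01, SE 0.34, adjusted p = 0.0183). Hspa1b read 7.34, 8.15 and 7.72 in WT lungs and 6.28, 6.82 and 6.36 in WT hearts (log2 difference 1.25, SE 0.32, adjusted p = 0.00409). Dnajb1 read 9.08, 9.55 and 9.71 in WT lungs and 8.34, 8.62 and 9.08 in WT hearts (log2 difference 0.76, SE 0.22, adjusted p = 0.00854), the only member whose WT tissues overlapped, where the lowest lung met the highest heart.

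The median over all genes was itself 0.32 higher in WT lung. Relative to that median the differences were 0.68 for Hspa1a, 0.93 for Hspa1b, 0.69 for Hsp90aa1 and 0.44 for Dnajb1. Centred on the median, Hspa1a (adjusted p = 0.0654) and Dnajb1 (adjusted p = 0.0576) were no longer called, and with summed transcripts scaled by the median of ratios Hsp90aa1 and Dnajb1 fell under 1.5-fold. The Hspa1a call also ended without lung WT replicate 2, the library with the highest skeletal muscle markers (log2 difference 0.90, adjusted p = 0.0609), and without heart WT replicate 1 (0.61, adjusted p = 0.087). Over all 22 alternatives the adjusted p lay between 0.00196 and 0.087 for Hspa1a, between 0.0013 and 0.0576 for Dnajb1 and between 0.000221 and 0.0361 for Hsp90aa1, and all 10 members kept their direction in each of them. Of all calls in WT, 5179 were higher and 3547 lower in lung, 4216 and 4422 after centring, and 6896 and 2550 with limma-voom.

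**Figure D2:**
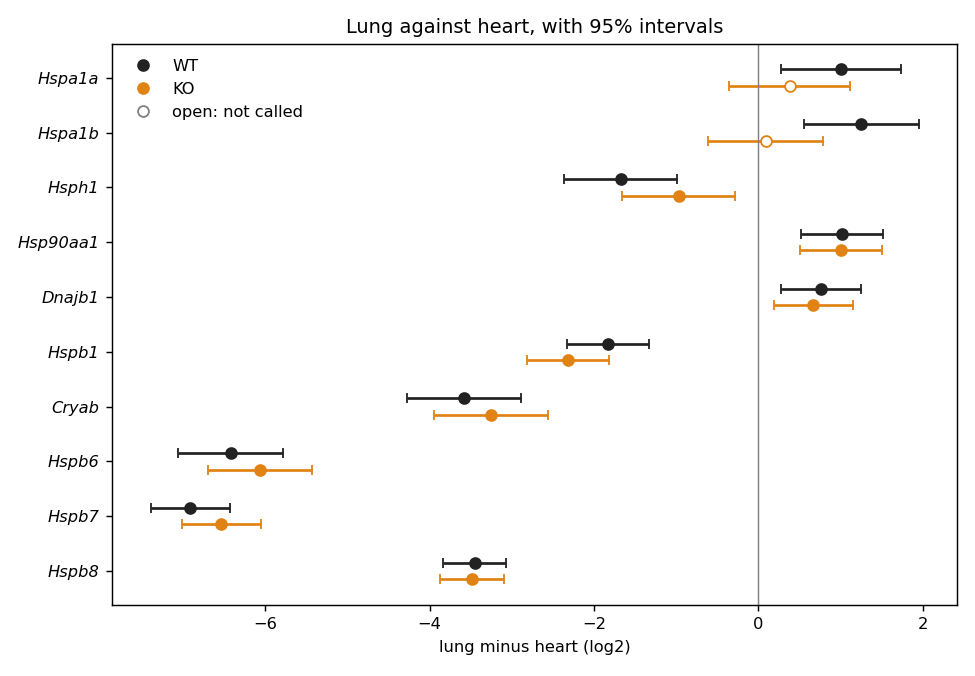
Lung minus heart difference of each member on the log2 scale (horizontal axis) in WT and KO mice, with 95% confidence intervals from the limma fit over 12 libraries. Filled points passed the test and open points did not. All 10 WT points are filled, and the open points are Hspa1a and Hspa1b in KO, at 0.38 and 0.09.

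The same comparison in KO mice called 8 of the 10 members, against 49.6% of all 17666 genes. Lower in lung were 6 of 10 members, against 20.9% of all genes, and higher in lung 2 of 10, against 28.7%. The groups did not overlap for 8 of 10 members and for 76.0% of all genes. Hspb7 was 92.6-fold and Hspb6 66.7-fold lower in KO lung (log2 differences −6.53 and −6.06, adjusted p = 1.55e-10 and 2.62e-09). Hspb8, Cryab and Hspb1 differed by −3.49, −3.26 and −2.32 on the log2 scale. Hsp90aa1 was higher in KO lung by 1.004 (adjusted p = 0.00181), and Dnajb1 by 0.67 (adjusted p = 0.0174). The median over all genes was 0.28 higher in KO lung, and relative to it these differences were 0.72 and 0.38. Of all KO calls, 5076 were higher and 3685 lower in lung, and with limma-voom 8028 and 2232.

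The HSP70 genes were not called in KO. Hspa1a read 7.81, 7.14 and 6.88 in KO lungs and 7.13, 6.82 and 6.75 in KO hearts (log2 difference 0.38, 95% interval −0.35 to 1.11, adjusted p = 0.336). Hspa1b read 7.62, 6.75 and 6.47 in KO lungs and 7.23, 6.84 and 6.50 in KO hearts (log2 difference 0.09, 95% interval −0.61 to 0.79, adjusted p = 0.82), and its sign turned to −0.09 after centring on the median. With limma-voom both passed, at 1.08 and 0.80 (adjusted p = 0.0108 and 0.049), out of 22 alternatives with adjusted p up to 0.8 and 0.894. In turn Hsph1, which read 8.54, 8.70 and 8.89 in KO lungs and 9.70, 9.89 and 9.45 in KO hearts (log2 difference −0.97, SE 0.32, adjusted p = 0.0158), was −0.30 with limma-voom (adjusted p = 0.436). Its call also ended without lung KO replicate 1 (−0.89, adjusted p = 0.0521) or heart KO replicate 2 (−0.87, adjusted p = 0.0546), in a range of 0.000224 to 0.436 over the alternatives. The Dnajb1 call ended without any 1 of lung KO replicate 1 (0.54), heart KO replicate 2 (0.61) and heart KO replicate 3 (0.59), with adjusted p of 0.0546 to 0.0753, and under both median scalings.

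Levels were compared between genes per transcript length, as estimated counts divided by length and scaled to a sum of 1000000 over all protein-coding transcripts, in medians over the 6 libraries of a tissue. In the lung Hsp90aa1 led with 417 (range 330 to 646), followed by Hspb1 with 188 (140 to 263) and Cryab with 144 (74.5 to 160), whose ranges overlapped. Hspb8 with 62.1 and Dnajb1 with 31.5 lay below these without overlap with their neighbours in the order. Hspb7 (18.3), Hsph1 (15.1), Hspa1a (10.9) and Hspa1b (10.5) followed with ranges that overlapped from each to the next, and Hspb6 was lowest with 4.52 (1.52 to 6.27), overlapping Hspa1b in range but below it in all 6 libraries. In the heart Hspb7 led with 1000 (761.8 to 1152), and Cryab (673), Hspb1 (435) and Hspb8 (362) followed, with each range overlapping the next. Hspb6 (117) and Hsp90aa1 (116) could not be ordered, and Hsph1 (20.2), Dnajb1 (9.32), Hspa1a (3.46) and Hspa1b (3.07) were lowest, with an overlap between Hsph1 and Dnajb1 and between the HSP70 pair. The 5 small heat shock proteins held 5 of the 6 leading places in the heart, with Hsp90aa1 as the other, which in the lung stood above all of them. Between tissues this scale did not always follow the deposited values. Hsph1 overlapped in WT, at 8.44 to 25.7 in lungs and 23.9 to 26.0 in hearts. Its KO mean was higher in lung (16.4 against 14.7). In KO mice Hspa1a was 6.98 to 12.3 in lungs and 3.12 to 4.48 in hearts. The Hsp90aa1 means in WT were 474 in lung and 130 in heart. All 5 small heat shock proteins kept higher means in hearts in both genotypes.

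Several members are near-identical to other genes, which bears on how reads were divided. Hspa1a and Hspa1b lie on the minus strand of chromosome 17 (35188166 to 35191132 and 35175412 to 35178214, GRCm39), 9951 bases apart, and share 99.2% of 2201 aligned transcript bases. Their summed level per library is therefore given below. Copies of Hsp90aa1 (Gm12346, Gm5844 and Gm5511) read at most 3.72 and the Hspb1 copy Hsp25-ps1 at most 2.81 in any library, far below their parent genes.

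Cryab differed between the tissues in transcript form as well as in level. The gene lies on chromosome 9 (50651859 to 50668567, plus strand, GRCm39). The start of its main transcripts is 328 bases from Hspb2, another small heat shock protein gene, which lies on the minus strand. Of its 2 main transcripts, ENSMUST00000216755.2 has 4 exons and ENSMUST00000034562.9 has 3. They differ in an intron of 90 bases (50664396 to 50664485) that the former removes, upstream of the coding start at 50664577 that both share. The spliced form held 93.8% to 96.0% of Cryab estimated counts in the 6 hearts and 21.0% to 59.3% in the 6 lungs. The unspliced form held 3.61% to 4.68% in hearts and 34.7% to 53.9% in lungs, so that the tissues did not overlap for either form. Put on the log2 scale of the gene values by each library's constant, the unspliced form read 8.99 ± 0.63 in WT lung and 9.05 ± 0.11 in WT heart (SD, n = 3), while the spliced form read 8.70 ± 1.54 and 13.53 ± 0.04. Lung minus heart in WT was −4.83 for the spliced and −0.06 for the unspliced form. Without lung WT replicate 3, an alternative chosen after seeing the data, they were −3.94 and 0.30. In KO mice the unspliced form read 8.99 ± 0.18 in lung and 8.95 ± 0.37 in heart, and the spliced form 9.50 ± 0.37 and 13.45 ± 0.56, a lung minus heart difference of 0.04 and −3.95. Lung WT replicate 3 stood apart, with 21.0% spliced form and 21.2% of a retained-intron transcript (ENSMUST00000216393.2) that was under 1% elsewhere, from 147.9 estimated counts. Transcript counts are estimates where exons overlap, and no test was run on them.

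**Figure D3:**
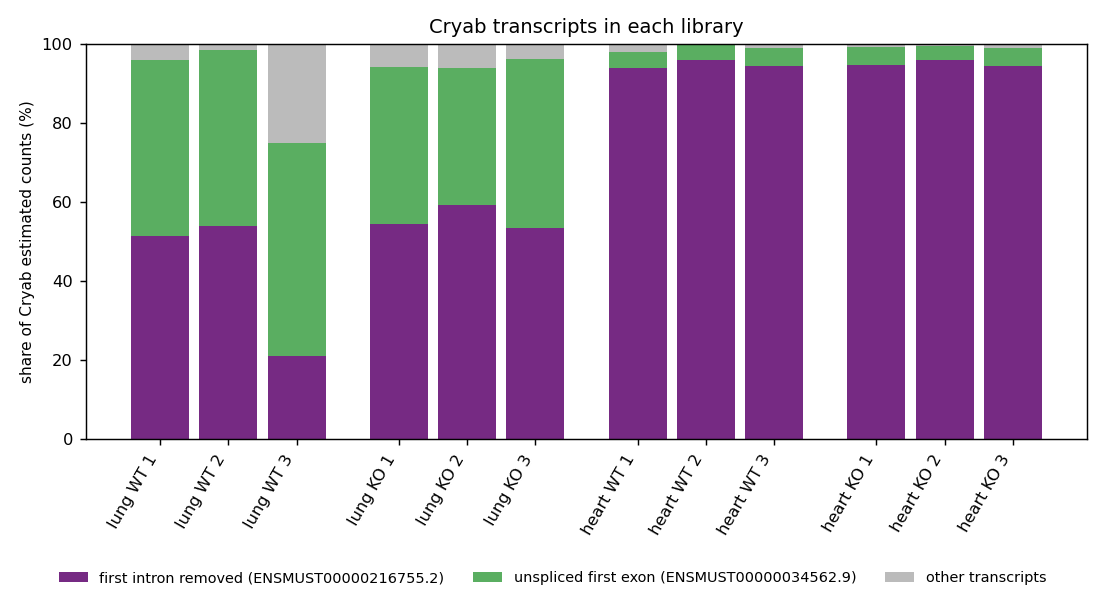
Share of the Cryab estimated counts (vertical axis, percent) held in each of the 12 libraries by the form with the 90-base intron removed, the form with the unspliced first exon, and all other transcripts. The spliced form holds 93.8% to 96.0% of the counts in hearts and 21.0% to 59.3% in lungs.

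Hspa1a, Hspa1b, Hspb7 and Hspb8 were read from 1 transcript each. Dnajb1 was divided between ENSMUST00000005620.10 (43.2% to 100% in lungs, 57.4% to 100% in hearts) and ENSMUST00000212300.2. In hearts the coding Hspb6 transcript held at least 99.5% of the counts, in WT lungs 82.3% to 100% and in KO lungs 39.0% to 49.3%, with 22.1% to 61.04% in a form without a defined coding sequence (ENSMUST00000123355.8) of at most 60.02 estimated counts. Hsp90aa1 had 68.3% to 84.3% in ENSMUST00000021698.13 across all libraries. A retained-intron form of Hsp90aa1 (ENSMUST00000134967.2) had 7.19 to 465 estimated counts in lungs and at most 6.54 in hearts. Hsph1 was read mainly from ENSMUST00000202361.4 (27.6% to 87.1% in lungs, 31.6% to 56.9% in hearts) and ENSMUST00000074846.14 (12.4% to 48.6% and 35.3% to 48.0%). A further coding form of Hsph1, ENSMUST00000202089.4, held 8.496% to 20.3% in 5 of the 6 hearts and was at 0 in heart WT replicate 1 and in all 6 lungs. In lung KO replicate 2 the coding form ENSMUST00000201452.4 held 20.6%, and it was at 0 in the other libraries.

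Other chaperones, their regulators and the filament partners were read from 9 lists with 73 genes, of which 70 were tested between tissues. In WT 43 of 70 were lower in lung (61.4%, against 20.1% of all genes tested) and 7 higher (against 29.3%). In KO 40 of 70 were lower (57.1%, against 20.9%) and 7 higher (against 28.7%). Lists were described by counts, to be read beside these shares, and no test of a list was run. Of the other genes listed with the small heat shock proteins, Hspb3 (log2 difference −5.04 in WT and −6.30 in KO) and Hspb2 (−3.18 and −3.37) were lower in lung in both genotypes. Hspb11, which was listed by its symbol only, was higher in WT lung (0.80). Cryaa, the lens crystallin, and Hspb9 were not tested for want of reads. Of the 8 filament and Z-disc partners 6 were lower in lung in each genotype, led by Myot (−7.62 in WT and −9.03 in KO), Ttn (−7.05 and −7.47) and Ldb3 (−6.74 and −6.59), and 2 were higher.

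In the HSP70 machinery outside the stress-inducible pair more genes were lower than higher in lung. Hspa8, the constitutive HSP70, was lower in lung by 1.01 in WT and 0.99 in KO on the log2 scale, opposite in direction to Hspa1a in WT. Hspa1l, the testis-type HSP70 gene, was lower by 3.63 and 3.35, and 3 of 8 genes of its list in WT and 2 in KO were called, all lower. Among the 10 other HSP40 genes 7 were lower and 1 higher in WT lung (6 and 2 in KO), led by Dnajb5 (−2.72 in WT), Dnaja4 (−2.41) and Dnaja3 (−2.26), whereas the member Dnajb1 was higher in lung. Of 10 co-chaperones and exchange factors of HSP70, 5 were lower and 1 higher in WT lung and 6 and 1 in KO. Bag2, which inhibits the ubiquitin ligase Stub1, differed by −3.35 in WT and −3.55 in KO, Bag3, the partner of Hspb8, by −3.13 and −2.67, and Stub1 itself by −1.30 and −1.48.

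The HSP90 list went mostly the other way from Hsp90aa1. Of its 11 genes, 7 were lower and 1 higher in lung in each genotype, with Unc45b, a myosin chaperone, at −4.16 in WT and −2.97 in KO, Fkbp4 at −2.21 and −2.16, Stip1, which links HSP70 to HSP90, at −1.76 in WT, and Aarsd1 at −1.95 in KO. Of the 8 mitochondrial chaperones 7 were lower in lung in each genotype, among them Hspa9 (−2.87 and −2.67), Hspd1 (−2.13 and −2.35), Clpb (−2.14 in WT) and Hspe1 (−2.31 in KO), and 1 was higher in KO. Of the 8 subunits of the chaperonin TRiC 3 passed in each genotype, all lower in lung: Cct8 (−0.73), Cct7 (−0.70) and Tcp1 (−0.64) in WT, and Tcp1 (−0.91), Cct3 (−0.90) and Cct8 (−0.66) in KO. Of the heat shock factors, Hsf1 was lower in WT lung (−0.72), as was their binding protein Hsbp1 (−0.67 in WT and −0.63 in KO), and Hsf4 was higher in WT lung (0.77). Over the 4 tested genes of that list 1 was higher and 3 lower in WT, and 1 was lower in KO.

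The second comparison asked whether loss of Adam19 altered the members within a tissue. In the lung none of the 10 members passed, and 11 of 16551 genes did (0.0665%). With limma at an unadjusted p under 0.05 there was 1 member, Hspa1b, and 5.93% of all genes, and with limma-voom 0 members passed. The KO minus WT differences ran from −0.79 to 0.34 on the log2 scale with adjusted p from 0.82 to 0.998, 4 members were above 0 and 6 below, and their median was −0.17 against 0.01 over all genes. For no member did KO and WT lungs fail to overlap, as 12.8% of all genes did. Hspb6 could not pass in lung, since neither group mean reached 6.

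The 2 HSP70 genes had the largest differences in the lung. Hspa1b was 7.74 ± 0.41 in WT and 6.95 ± 0.60 in KO lungs (SD, n = 3; difference −0.79, SE 0.33, 95% interval −1.55 to −0.04, unadjusted p = 0.0419, adjusted p = 0.82). Hspa1a was 7.78 ± 0.29 and 7.28 ± 0.48 (difference −0.50, SE 0.28, 95% interval −1.13 to 0.13, adjusted p = 0.841). Summed over both genes the level was 8.40, 9.08 and 8.80 in WT lungs and 8.72, 7.95 and 7.69 in KO lungs, a difference of −0.64 (exact two-sided permutation p = 0.2, where 3 against 3 cannot give less than 0.1). KO lung replicate 1 lay among the WT lungs. The summed skeletal muscle markers were also lower in every KO lung (8.20 to 9.06) than in any WT lung (9.34 to 12.03). None of the 5 tested was called, and hearts read 15.58 to 16.43 on that list, so it does not mark skeletal muscle alone. Of 10 heart muscle markers 9 were lower and 1 higher in KO lung (median −0.58), with none called. All 5 red blood cell markers were lower in KO lung (median −1.08), with none called, although their summed level was highest in KO lung replicate 1 (17.16). The part of these 3 lists in the HSP70 values was not tested. The small heat shock proteins were closer to 0, with Hspb1 at −0.39 (95% interval −0.85 to 0.07), Hspb8 at −0.19 (−0.64 to 0.25), Cryab at 0.23 (−0.50 to 0.96), Hspb7 at 0.28 (−0.30 to 0.85) and Hspb6 at 0.34 (−0.43 to 1.104). Hsph1 (0.01, −0.84 to 0.86), Hsp90aa1 (−0.21, −0.82 to 0.40) and Dnajb1 (−0.15, −0.62 to 0.32) also had intervals that held 0, and the widest of these intervals allow a change of more than 1.5-fold either way. The Hspb6 difference is that of the gene value, which includes forms without a defined coding sequence. Its coding transcript had 33.9, 55.8 and 37.3 estimated counts in WT lungs and 35.7, 38.3 and 21.9 in KO lungs, before any scaling. The genotype difference of that transcript was not tested.

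**Figure D4:**
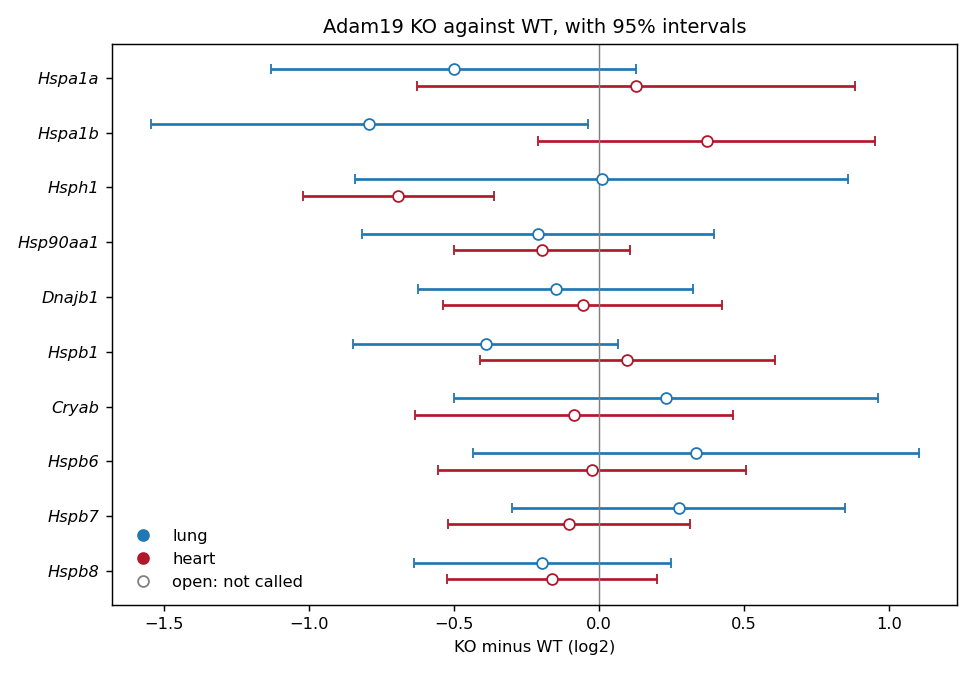
KO minus WT difference of each member on the log2 scale (horizontal axis) in lung and in heart, with 95% confidence intervals from the limma fit of each tissue over 6 libraries. All 20 points are open, as none passed the test, and the intervals of Hspa1b in lung and Hsph1 in heart do not reach 0.

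In the heart none of the 10 members passed either, and 13 of 15303 genes did (0.085%). At an unadjusted p under 0.05 there was again 1 member, Hsph1, and 7.46% of all genes, and limma-voom passed 0 members. Hsph1 read 10.26, 10.42 and 10.44 in WT hearts and 9.70, 9.89 and 9.45 in KO hearts, so that every KO heart lay below every WT heart (difference −0.69, SE 0.15, 95% interval −1.02 to −0.36, unadjusted p = 0.00109, adjusted p = 0.303). The summed level of 6 smooth muscle markers moved the opposite way, at 13.54 to 13.85 in WT and 14.19 to 14.43 in KO hearts, and its part in the Hsph1 values was not tested. Hsph1 was the 1 member of 10 whose groups did not overlap, as did those of 13.0% of all genes. Its difference stayed between −0.79 and −0.52 over 15 alternatives, with adjusted p between 0.242 and 0.971. Hsp90aa1 was −0.20 (95% interval −0.50 to 0.11), Dnajb1 −0.06 (−0.54 to 0.43), Hspa1a 0.13 (−0.63 to 0.88) and Hspa1b 0.37 (−0.21 to 0.95).

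All 5 small heat shock proteins had intervals that held 0 in the heart. Hspb6 was −0.02 (95% interval −0.56 to 0.51), Cryab −0.09 (−0.64 to 0.46), Hspb1 0.10 (−0.41 to 0.61), Hspb7 −0.10 (−0.52 to 0.31) and Hspb8 −0.16 (−0.52 to 0.20). Summed over Hspa1a and Hspa1b the hearts read 7.13, 7.91 and 7.91 in WT and 8.18, 7.83 and 7.62 in KO, a difference of 0.22 (exact two-sided permutation p = 0.7). Over all 10 members the median difference was −0.07, against 0.03 over all genes.

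None of the genes in the 9 lists of other chaperones, their regulators and the filament partners was called between genotypes by limma. At an unadjusted p under 0.05 there were 4 of 68 tested in lung (5.88%, against 5.93% of all genes) and 7 of 70 in heart (against 7.46%). Of the immediate early genes none was called either, with 1 of 15 at that level in lung and 1 of 14 in heart. The difference of the genotype effect between the tissues was tested on its own, in the fit over 12 libraries, and no member passed, while 1 of 17666 genes did (0.00566%). At an unadjusted p under 0.05 there was Hspa1b alone among the members, at −1.16 (95% interval −2.15 to −0.17, unadjusted p = 0.0252, adjusted p = 0.599), with 7.88% of all genes, and limma-voom passed 0 members. Hspa1a was −0.63 (adjusted p = 0.757) and Hsph1 0.70 (adjusted p = 0.699). The mouse numbers carry prefixes that no WT and KO mouse share, and whatever the prefix stands for and the genotype cannot be told apart.

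Within groups, every member had a larger SD than most genes of like mean level over the 12 libraries. The SD within groups over 12 libraries was 0.46 for Cryab, above 96.4% of the 1638 genes within 1 log2 unit of its mean level, 0.45 for Hsph1 (95.7% of 5200), 0.41 for Hspb6 (91.5% of 5111) and 0.46 for Hspa1a (83.2% of 3480). It was lowest for Hspb8, at 0.23 (59.9% of 2506). The mean level pools lung and heart. For Hspb6 it was 8.89, with 5.60 in WT lungs and 12.02 in WT hearts. Genes near that mean were thus not of like abundance in either tissue, and the same holds for other members far apart between tissues. The variation had no single order over the members. In lung WT replicate 3 Hsph1, Hsp90aa1, Dnajb1 and Hspb8 were the highest of the WT lungs, and Cryab, Hspb6, Hspb7 and Hspb1 the lowest. In heart KO replicate 2 Cryab (14.18), Hspb6 (12.58) and Hspb7 (15.18) were the highest of all 6 hearts. Heart KO replicate 3 was the lowest KO heart for 8 of 10 members and the highest for Hspb1. Lung KO replicate 3, from the same mouse, was the lowest KO lung for 8 of 10 and the highest for Hsph1 and Hsp90aa1. The share of all genes lowest in these libraries was not counted, and over 17666 genes the deviations of the pair correlated at −0.04.

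**Figure D5:**
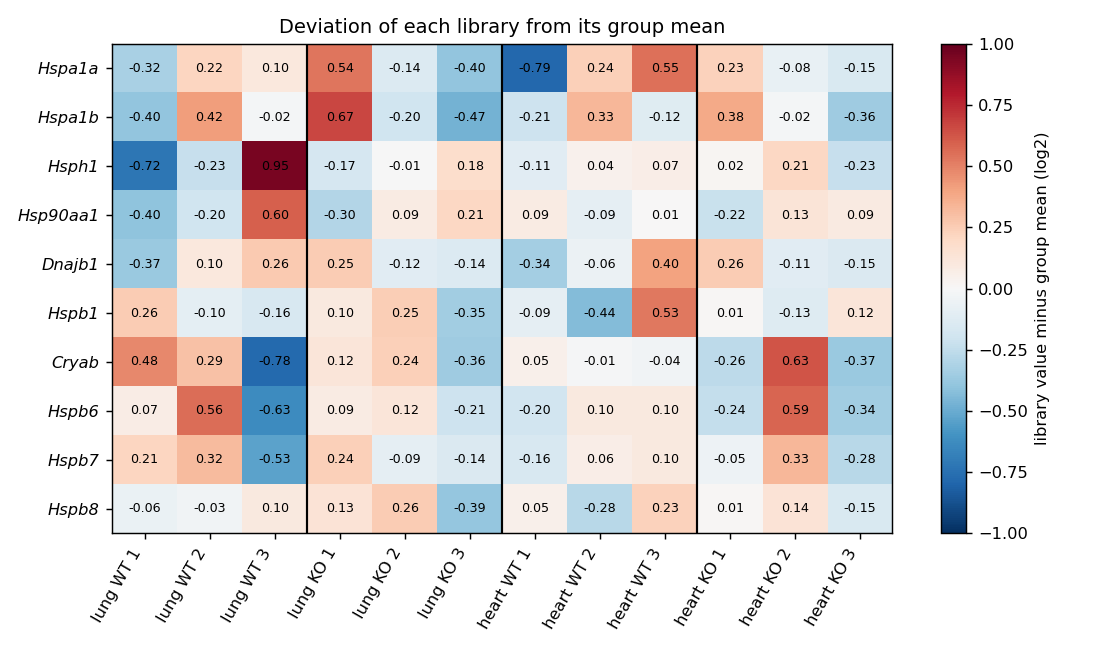
Deviation of each library from the mean of its group (colour and printed number, log2 units) for the 10 members (rows) in the 12 libraries (columns), with lines between the 4 groups. Cryab, Hspb6 and Hspb7 are low together in lung WT 3 (−0.78, −0.63 and −0.53) and high together in heart KO 2 (0.63, 0.59 and 0.33), and Hsph1 in lung WT 3 stands highest at 0.95.

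The genes whose deviations lay closest to those of Cryab, by the root mean square difference over 12 libraries among 17666 genes, were Fstl3 (0.13), Kcnq5 (0.13), LTO1 (0.14), Dpagt1 (0.14) and Eef2k (0.15), against a root mean square of 0.38 for the deviations of Cryab itself. Among the members, Hspb6 was 29th at 0.18 and Hspb7 77th at 0.21. For Hspa1a, with a root mean square of 0.37, the closest were Klf2 (0.16), Nectin1 (0.17), Zbtb34 (0.18), Gm48630 (0.19) and Ly6g6d (0.20), and Dnajb1 was 7th at 0.20, while its near-identical copy Hspa1b was 157th at 0.28.

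Hspa1b peaked in the same libraries as the immediate early genes, which respond to handling and stress within minutes. The summed level of 15 immediate early genes was highest in lung WT 2 (14.55), lung KO 1 (14.09), heart WT 2 (13.26) and heart KO 1 (13.38). Hspa1b was highest in those 4 libraries of the 4 groups, Hspa1a in 3, Dnajb1, Hspb6 and Hspb7 in 2, and the other members in 0. Of all 17666 genes 1.35% peaked in all 4. Reads may be divided between the near-identical Hspa1a and Hspa1b. Their summed level was highest in lung WT 2 (9.08), lung KO 1 (8.72) and heart KO 1 (8.18). Among WT hearts it was highest in replicate 3 (7.914), close to replicate 2 (7.911), so the sum did not share the peak there. Between tissues, 9 of the 15 immediate early genes were higher in WT lung (29.3% of all genes tested were) and none lower, led by Egr2 (3.78), Fosb (2.62) and Junb (1.51), and 7 of 15 were higher in KO lung (28.7% of all genes), led by Egr2 (1.79), Btg2 (1.497) and Zfp36 (1.08). Their part in the level of the HSP70 genes was not tested.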

How the data were processed

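Whole lung and heart RNA of 6 mice was sequenced from stranded total RNA libraries. The submitters' processing notes name cutadapt, STAR, Salmon, limma 3.42.2 and the build mm39. The authors deposited log2 values, namely log2(1 + estimated count) per transcript and log2 values per gene that carry a constant per library. The constants, from −0.63 to 0.80, were read from genes with 1 transcript. How the authors derived the gene values is not given in the sources used here, so the main test was run on the log2 values, and limma-voom, on the gene values taken back to estimated counts, was an alternative.

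Genes with a deposited log2 value of at least 3.46, which is log2(1 + 10), in at least 3 libraries were fitted with limma 3.58.1 (R 4.3.3), with a trend of variance on abundance. As these values carry the library constants, the limit was not the same estimated count in each library. Genotypes were compared within a tissue over 6 libraries, and tissues and the difference of genotype effects over 12. A gene was called where adjusted p was under 0.05, the change was 1.5-fold or more and 1 group mean or both reached 6. Within a tissue the p-values rest on the spread between mice, with 3 in each group. In the fits over 12 libraries the 4 groups shared 1 estimate of the spread, and lung and heart of a mouse were treated as independent. Lung and heart of a mouse are paired by the mouse number in the labels, and deviations of the paired libraries correlated from −0.07 to 0.14 over 17666 genes. The members and lists were chosen with earlier results of these data known. From each list, up to 3 called genes with the largest difference are named, and for Hspa1a and Cryab the 5 genes with the closest deviations. Transcript lengths and gene positions are from GENCODE vM39 (GRCm39), in which 21 of 38 member transcripts have the version of the files, and near-identical copies are from blastn 2.17.0. The fits were tested on simulated data. Of 100 genes changed by 1 log2 unit, 44 were recovered for KO minus WT in lung and 65 in heart, and 35 for the difference of genotype effects. At 2 log2 units 81, 94 and 85 of 100 were recovered, so changes of 1 log2 unit could often be missed.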

Additional observations from a re-analysis of the deposited data

How the results depend on the processing

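No member was called between genotypes, or for the difference of genotype effects, in any alternative. Hspb1, Cryab, Hspb6, Hspb7 and Hspb8 kept their tissue calls in both genotypes in all 22 alternatives. The replicate block by mouse left 10 members called in WT and 8 in KO, changed no member's call, and gave 2 genes in place of 1 for the difference of genotype effects. That count was 0 after centring, 4 with a pseudocount of 10, and 0 to 5 with 1 library left out. With a deposited log2 value of at least 3.46 in every library, 1 gene was called in lung in place of 11 and 7 in heart in place of 13. With 1 heart left out 10 to 21 genes were called in heart, most without heart KO replicate 2. The cause was not tested.

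Signs that turned belonged to differences that were not called. In lung, KO minus WT was −0.42 for Hsph1 with summed transcripts and −0.41 by median of ratios, and with limma-voom 0.075 for Hsp90aa1, 0.13 for Dnajb1 and 0.10 for Hspb8. In heart it was 0.008 for Hspb6 with limma-voom. Lung minus heart in KO was −0.067 for Hspa1b by median of ratios and −0.094 after centring. The difference of genotype effects for Hsp90aa1 was 0.24 with limma-voom, 0.10 with summed transcripts, 0.15 by median of ratios and 0.055 after centring, for Dnajb1 0.14 with limma-voom, and for Hspb8 0.23, 0.017 by median of ratios and 0.033 after centring.

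With 1 library left out, KO minus WT in lung ran from −0.35 to 0.49 for Hsph1, −0.41 to 0.091 for Hsp90aa1, −0.15 to 0.47 for Cryab and −0.32 to 0.0003 for Hspb8. In heart it ran from −0.27 to 0.40 for Hspa1a, −0.23 to 0.14 for Dnajb1, −0.12 to 0.36 for Hspb1, −0.40 to 0.10 for Cryab, −0.32 to 0.15 for Hspb6, −0.27 to 0.037 for Hspb7 and −0.038 to 0.35 for the summed HSP70 pair. Lung minus heart in KO ran from −0.25 to 0.33 for Hspa1b. The difference of genotype effects ran from −0.21 to 0.29 for Hsp90aa1, −0.29 to 0.078 for Dnajb1, −0.069 to 0.63 for Cryab and −0.16 to 0.16 for Hspb8.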
